A study of Mus musculus with 6 samples.

Results

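Shelterin is the protein complex that covers the ends of mammalian chromosomes. The mouse genes of its subunits are *Terf1* (also called *Trf1*), *Terf2*, *Terf2ip*, *Tinf2*, *Acd*, *Pot1a* and *Pot1b*, and they were picked by symbol from the 12125 genes of the deposited table. All 7 genes had a row, so none was missing. RNA was sequenced from kidney cells of 3 *Trf1+/+* mice and 3 *Trf1flox/flox* mice, in which the shelterin gene *Terf1* was to be deleted in fibroblasts. All mice carried Col1a2-CreERT2, a Cre recombinase that is driven by a collagen promoter of fibroblasts and acts after tamoxifen, and KFP, the Katushka fluorescent protein that marks cells in which Cre has acted. Male and female mice of 6 to 8 weeks of age were injected with tamoxifen 3 times a week for 8 weeks, so the controls received Cre and tamoxifen as well. Each library was made from 500 cells sorted for CD29, an integrin on the cell surface, and for KFP. Which bases of *Terf1* lie between the loxP sites is not given in the sources used here, and a count summed over all exons may include reads from exons that Cre does not remove.

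At a telomere, TRF1 and TRF2, the products of *Terf1* and *Terf2*, bind the double-stranded TTAGGG repeats. RAP1, encoded by *Terf2ip*, binds TRF2. TIN2, encoded by *Tinf2*, joins TRF1 and TRF2 and holds TPP1, the product of *Acd*, which in turn carries a POT1 protein onto the single-stranded overhang. The mouse has a pair of POT1 genes, *Pot1a* and *Pot1b*, where the human genome has a single one. TRF1 is known for helping replication forks pass through telomeric repeats, TRF2 for preventing end-to-end fusion, and the POT1 proteins for keeping the ATR damage kinase away from the overhang.

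*Terf2ip* was the only member with groups that did not overlap, and the sequence upstream of it is shown for that reason. On GRCm38.p6, the 35 bases at chr8:112011324-112011358 on the plus strand separate the RefSeq start of *Terf2ip* from the GENCODE start of *Kars*. *Kars* is a lysyl-tRNA synthetase gene that is transcribed in the opposite direction. GENCODE places the start of *Terf2ip* further on, at 112011398. By these starts the 35 bases lie in no exon of either gene.

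*Kars* to *Terf2ip*: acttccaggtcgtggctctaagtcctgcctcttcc

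The libraries held between 10263382 and 12248797 reads on the listed genes. The deposited values are counts divided by a size factor, called normalized counts here, and 1 read was worth between 0.689 and 1.09 of them. Few of these reads fell on the shelterin genes: 438, 927 and 1176 for *Trf1+/+* and 839, 657 and 1081 for *Trf1flox/flox*. Only the library labelled *Trf1flox/flox* replicate 3 had more than 3 reads on each of the 7 genes. At 3 reads or fewer were 5, 2 and 2 members for *Trf1+/+* and 2, 3 and 0 members for *Trf1flox/flox*. In the whole table, 43.8%, 20.0% and 16.7% of genes were at 3 reads or fewer in *Trf1+/+* and 17.3%, 29.8% and 8.37% in *Trf1flox/flox*. The library labelled *Trf1+/+* replicate 1 stood apart, with a median of 13.4 normalized counts per gene where the others had 118 to 148.

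The labels name the cells fibroblasts. Of 13 fibroblast markers, 2 had a row. *Col1a2*, the gene whose promoter drives Cre, had at most 2 reads in any library, and *Dcn*, the other marker, was at 0, 0 and 93.6 normalized counts in *Trf1+/+*, against 0.859, 97.3 and 39.3 in *Trf1flox/flox*. All 11 proximal tubule markers had a row and summed to 22314 to 97036 normalized counts in *Trf1+/+* and 27424 to 129461 in *Trf1flox/flox*, with *Kap* highest in the mean over libraries. All 10 markers of the loop of Henle, distal tubule and collecting duct had a row too, summing to 75012 to 126732 and 56989 to 155722, with *Umod* highest. Of the pericyte and smooth muscle, endothelial and leukocyte markers, 3 of 9, 2 of 8 and 4 of 10 had a row, led by *Cspg4*, *Ehd3* and *Cd74*, and the leukocyte marker *C1qb* was listed at 0 in all 6 libraries. Podocyte markers were not analysed here. In bulk libraries, fewer cells of a type and less RNA per cell cannot be told apart, and the part of the tubule RNA in the values below was not tested.

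**Figure D1:**
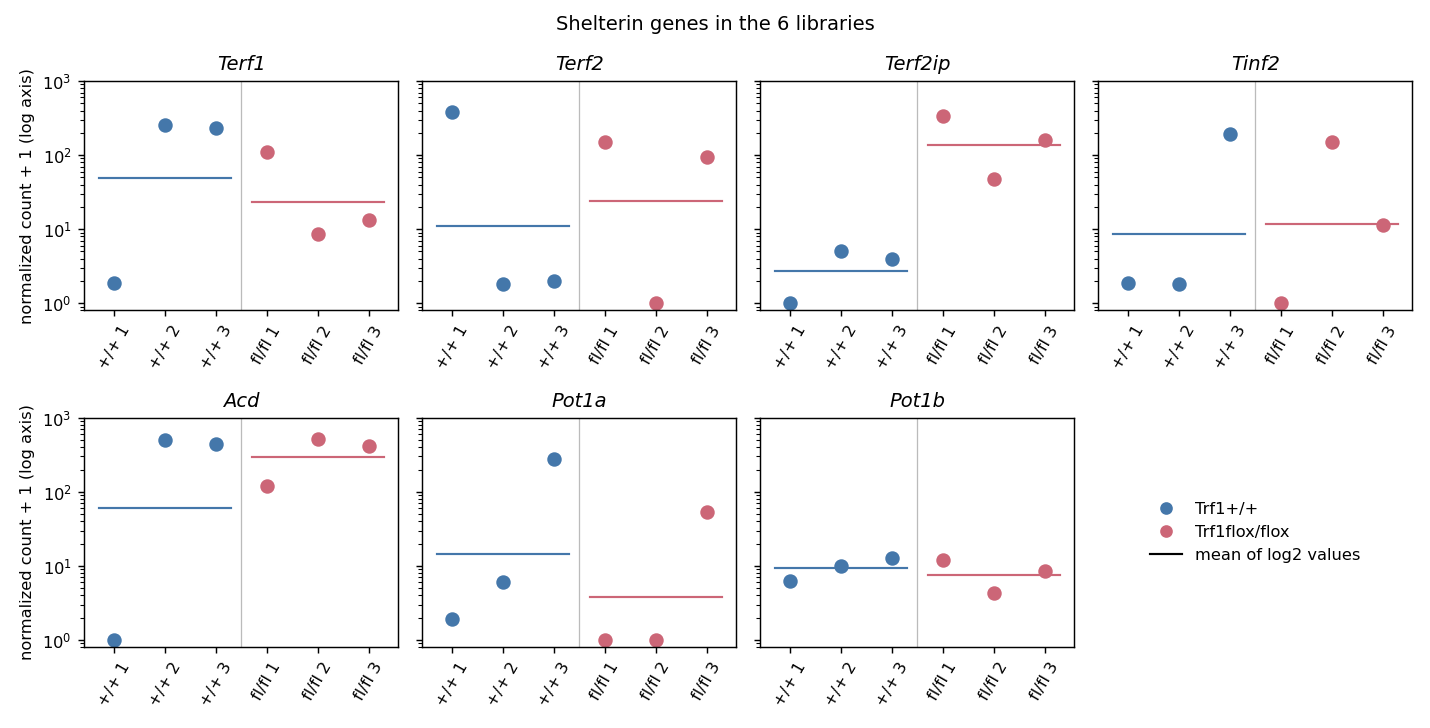
Normalized counts plus 1 (log axis) of the 7 shelterin genes in the 6 libraries. Points are single libraries, +/+ stands for Trf1+/+ and fl/fl for Trf1flox/flox, and lines are group means of the log2 values. Only Terf2ip has groups that do not overlap, and Pot1b is the member with the narrowest range, from 3.28 to 11.8 normalized counts.

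*Terf1* (ENSMUSG00000025925), the gene to be deleted, lies on chromosome 1 from 15805646 to 15844052 on the plus strand of GRCm38. It was measured at 0.891, 253 and 235 normalized counts in *Trf1+/+*, against 110.0, 7.65 and 12.4 in *Trf1flox/flox*, from 1, 305 and 238 and from 128, 7 and 18 reads. The groups overlapped, because the library labelled *Trf1+/+* replicate 1 held the lowest value of all, against its label. In that library 43.8% of all genes were at 3 reads or fewer. *Trf1flox/flox* replicate 1, where *Terf1* was to be deleted, still held 128 reads. On average *Terf1* stood at 163 ± 140.4 and 43.3 ± 57.8 normalized counts (SD, n = 3 each). On the log2(normalized count + 1) scale, *Trf1flox/flox* minus *Trf1+/+* was -1.04 with a standard error of 2.63, smaller than the spread within groups (limma, adjusted p = 0.985; exact two-sided permutation test, p = 0.8, where 0.1 is the smallest that 3 against 3 allows). Without the library labelled *Trf1+/+* replicate 1 the difference was -3.38, both remaining *Trf1+/+* values lay above all 3 *Trf1flox/flox* values, and the exact two-sided permutation p was 0.2, the smallest that 2 against 3 allows. Without *Trf1+/+* replicate 2 or 3 it turned to 0.15 and 0.10.

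*Terf2* (ENSMUSG00000031921, chromosome 8, 107069400 to 107096547, minus strand), whose protein also binds the double-stranded repeat, was at 382, 0.829 and 0.985 normalized counts in *Trf1+/+*, against 148, 0 and 93.0 in *Trf1flox/flox*. It was high in the *Trf1+/+* library that nearly lacked *Terf1*, and in the other two it had 1 read each. In *Trf1flox/flox* replicate 1 both genes were above 100 normalized counts. The group means were 128 ± 220.1 and 80.3 ± 74.7 (SD, n = 3 each), and the log2 difference was 1.11 with a standard error of 2.84 (limma, adjusted p = 0.986). Its sign was not stable: -0.43 in edgeR and -0.63 in DESeq2, and -0.19, -0.14 and -0.20 without *Trf1+/+* replicate 2, *Trf1+/+* replicate 3 or *Trf1flox/flox* replicate 1.

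*Terf2ip* (ENSMUSG00000033430, chromosome 8, 112011398 to 112020528, plus strand), which encodes the TRF2 partner RAP1, was at 0, 4.14 and 2.96 normalized counts in *Trf1+/+*, against 333, 45.9 and 159 in *Trf1flox/flox*. Those values came from 0, 5 and 3 reads against 388, 42 and 231, and every *Trf1flox/flox* library lay above every *Trf1+/+* library. The means were 2.37 ± 2.13 and 179 ± 145 (SD, n = 3 each). The log2 difference was 5.64 with a standard error of 2.18, the largest among the members, and leaving out 1 library at a time gave 4.91 to 6.41. Its unadjusted p in limma was 0.0242 and its adjusted p over all tested genes was 0.970. Adjusted p-values were 0.999 in edgeR and 0.0641 in DESeq2, so no tool placed it under 0.05. *Terf2ip* passed the filter on low values through *Trf1flox/flox* alone, with 0 of 3 *Trf1+/+* and 3 of 3 *Trf1flox/flox* libraries at 10 or more. *Kars*, on the other side of the printed 35 bases, had 1658, 334 and 395 and 223, 381 and 458 normalized counts, with groups that overlapped.

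*Tinf2* (ENSMUSG00000007589, chromosome 14, 55674689 to 55681820, minus strand), the gene of the TIN2 bridge between TRF1 and TRF2, was at 0.891, 0.829 and 190 normalized counts in *Trf1+/+*, against 0, 148 and 10.3 in *Trf1flox/flox*. In each group a single library lay above 100, and the others were at 0 to 15 reads. The means were 64.0 ± 109 and 52.6 ± 82.4 (SD, n = 3 each), and the log2 difference was 0.45 with a standard error of 2.49 (limma, adjusted p = 0.992). It was -0.42 in edgeR and -0.29 in DESeq2, and it was -0.65, -0.68 and -1.37 without *Trf1+/+* replicate 1, *Trf1+/+* replicate 2 or *Trf1flox/flox* replicate 2. Of its exon bases, 1540 (31.2%) overlap exons of *Gmpr2* on the other strand, and the libraries do not keep the strand, so reads there cannot be assigned. *Gmpr2* itself had 364, 326 and 210 against 68.7, 63.4 and 147.

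*Acd* (ENSMUSG00000038000, chromosome 8, 105695860 to 105701102, minus strand), which encodes TPP1, was at 0, 495 and 441 normalized counts in *Trf1+/+*, against 119, 514 and 410.0 in *Trf1flox/flox*. It was detected at 138 reads or more in 5 libraries and at none in the library labelled *Trf1+/+* replicate 1. The means were 312 ± 272 and 347 ± 205 (SD, n = 3 each). The log2 difference was 2.28 with a standard error of 2.18 (limma, adjusted p = 0.970), and without that single library it was -0.68. In edgeR and DESeq2 it was 0.09 and 0.15. Exons of *Carmil2* on the other strand share 1208 of its exon bases (33.3%), and *Carmil2* was not analysed here.

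The POT1 genes did not pass the filter and have no value in the test. *Pot1a* (ENSMUSG00000029676, chromosome 6, 25743737 to 25809246, minus strand) was at 0.891, 4.97 and 277 normalized counts in *Trf1+/+*, against 0, 0 and 52.4 in *Trf1flox/flox*, so replicate 3 of each group held nearly all of its reads. *Pot1b* (ENSMUSG00000024174, chromosome 17, 55651951 to 55712628, minus strand) had 5.34, 9.11 and 11.8 and 11.2, 3.28 and 7.58, on 3 to 13 reads per library, with means of 8.76 ± 3.25 and 7.34 ± 3.95 (SD, n = 3 each). It was above 0 in every library, like *Terf1*, and it was the member that varied least, with a within-group SD of 0.65 on the log2 scale. The other members had 1.35 to 4.21, and the median over all tested genes, which leave out *Pot1b*, was 2.17. At 3 to 13 reads per library, the small SD of *Pot1b* cannot be read as stable expression. With no filter on low values the log2 differences were -1.96 with a standard error of 2.55 for *Pot1a* and -0.29 with a standard error of 1.98 for *Pot1b* (limma, adjusted p = 0.980 and 0.997).

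**Figure D2:**
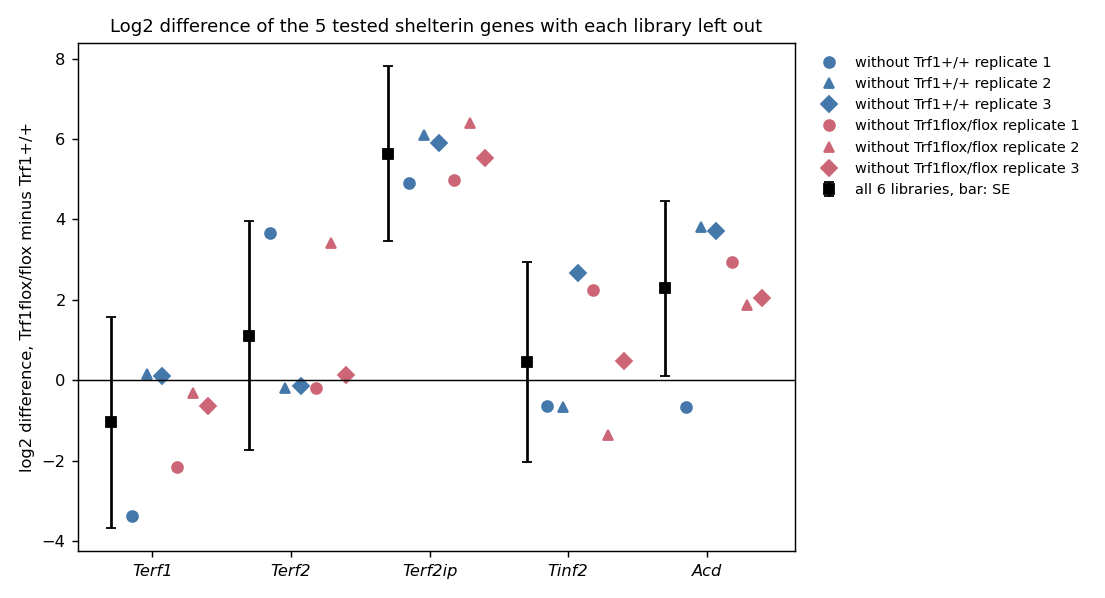
Log2 difference in normalized counts plus 1, Trf1flox/flox minus Trf1+/+, for the 5 shelterin genes that passed the filter. Black squares use all 6 libraries with the standard error as bar, and coloured points leave out 1 library each. Terf2ip runs from 4.91 to 6.41. Its groups do not overlap, so leaving out 1 library cannot change its sign.

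Of the 5 members tested, 0 had an adjusted p under 0.05 in limma, as did 0% of all 9966 tested genes. Without adjustment, 1 member, *Terf2ip*, had a p under 0.05 in limma, as did 3.13% of the tested genes. The 3 *Trf1flox/flox* libraries lay above the 3 *Trf1+/+* libraries for 1 member, against 5.35% of the tested genes, and groups without overlap in either direction were found for 8.68%. In edgeR's quasi-likelihood test 0 members had an adjusted p under 0.05 and 1 had an unadjusted one, beside 0% and 1.97% of the tested genes. DESeq2, which gave no p for *Tinf2*, had the same counts of members. Beside them stood 0.617% of the genes with an adjusted p and 4.27% of those with an unadjusted one. The log2 difference was positive for 4 members and negative for *Terf1*. Its median was 1.11 over the 5 members and 0.20 over all tested genes, of which 55.9% were positive. The members' median was -0.42 in edgeR and -0.65 without the library labelled *Trf1+/+* replicate 1. Over all tested genes it was -0.04 and -0.03 in these settings, and 0.44 when libraries were scaled to the same upper quartile.

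**Figure D3:**
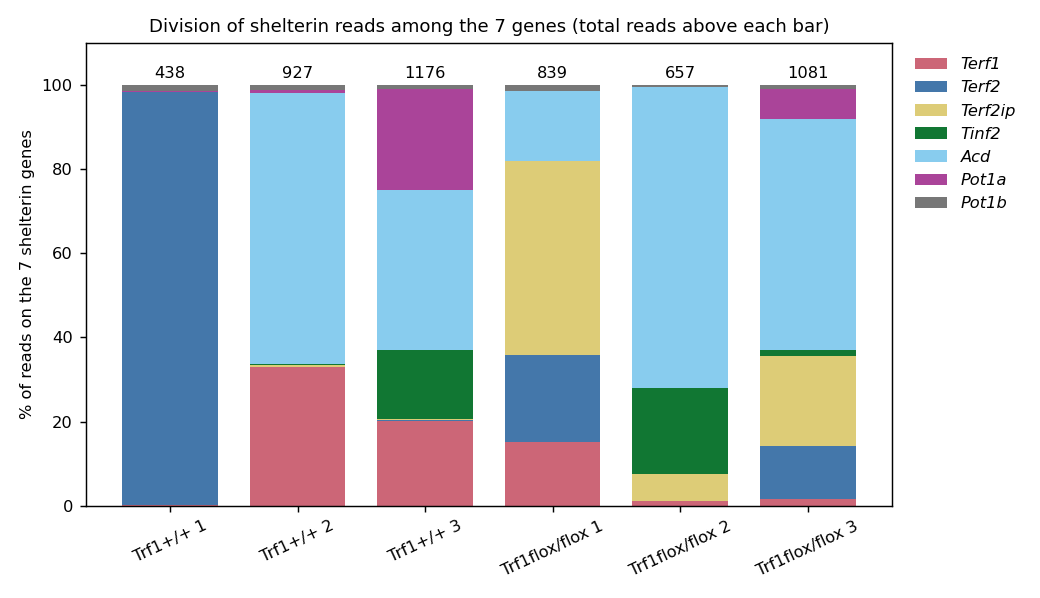
Percent of the reads on the 7 shelterin genes that fell on each gene, by library, with the total number of those reads above each bar. Terf2 takes 97.9% in Trf1+/+ replicate 1, Terf2ip takes 46.2% in Trf1flox/flox replicate 1, and Acd is the most abundant member in the other 4 libraries.

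The members differed in which library they were high in. *Terf2* took 97.9% of the shelterin reads in the library labelled *Trf1+/+* replicate 1. *Acd* took 64.5% and 38.1% in *Trf1+/+* replicates 2 and 3, and *Terf2ip* took 46.2% in *Trf1flox/flox* replicate 1. *Acd* led again in *Trf1flox/flox* replicates 2 and 3, with 71.5% and 55.0%. Summed over the 7 genes, the normalized counts were 390, 768 and 1159 in *Trf1+/+* and 721, 718 and 745 in *Trf1flox/flox*. The *Trf1flox/flox* sums lay within the *Trf1+/+* range, and the division among the genes changed from library to library. Those sums were close to each other only after the size factors. The reads behind them were 839, 657 and 1081, in libraries of 10514052, 11285532 and 10263382 reads on the listed genes. Without *Terf1* the sums were 389, 515 and 924 and 611, 710 and 733, and these also overlapped.

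As a share of shelterin reads, *Terf1* made up 0.228% (95% Wilson interval 0.0403 to 1.28) in the library labelled *Trf1+/+* replicate 1. It made up 32.9% (30.0 to 36.0) in *Trf1+/+* replicate 2 and 20.2% (18.0 to 22.6) in *Trf1+/+* replicate 3. In *Trf1flox/flox* the shares were 15.3% (13.0 to 17.8), 1.07% (0.517 to 2.18) and 1.67% (1.06 to 2.62). These intervals cover counting error only, since amplified reads without molecular identifiers are not independent molecules. The group means were 17.8% ± 16.5 and 6.0% ± 8.03 (SD, n = 3 each), 11.8 percentage points apart, which is less than the spread within *Trf1+/+*. With *Acd* left out of the sum, *Terf1* was 33.3 points lower in *Trf1flox/flox*. The spread within groups was not computed for that sum, so the difference cannot be set against it.

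Levels of different genes were compared per length of exon, as the RPKM over the listed genes (reads per kilobase, scaled to the library's reads). Over the 6 libraries *Acd* had the highest mean, 9.53 ± 6.29 (SD), and it exceeded *Terf2*, the next in order, in 5 of 6 libraries. *Terf2* (2.35 ± 3.03), *Terf1* (2.31 ± 2.54) and *Terf2ip* (2.15 ± 3.13) did not differ beyond their spread, and each exceeded the next in 3 of 6 libraries. These means pool both genotypes, also for *Terf1*, the gene to be deleted. The mean of *Terf2ip* describes neither group: it was at 0, 0.0859 and 0.0589 in *Trf1+/+*, against 7.44, 0.751 and 4.54 in *Trf1flox/flox*. *Tinf2* had 1.09 ± 1.63 and *Pot1a* 0.680 ± 1.26, and neither stood apart from its neighbours in the order. Without the library labelled *Trf1+/+* replicate 1 the mean of *Terf2* was 1.29, below those of *Terf1* (2.77), *Terf2ip* (2.58) and *Tinf2* (1.31), so its place in the order rests on that library. *Pot1b* was lowest in the mean, at 0.164 ± 0.0749, although *Pot1a* exceeded it in only 2 of 6 libraries.

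Reads that match several genes could blur these levels. In the GENCODE transcripts, stretches of 50 bases that also occur in another gene made up 26.5% of those of *Tinf2* and 23.1% of those of *Acd*, nearly all shared with *Gmpr2* and *Carmil2*. The share was 2.97% for *Terf1*, 1.96% for *Terf2ip*, 1.36% for *Pot1b*, 0.186% for *Pot1a* and 0% for *Terf2*. *Terf1* and *Terf2* had no such stretch in common, nor did *Pot1a* and *Pot1b*. *Terf1* shared 31 of its 4652 stretches with other members, namely *Terf2ip* and *Tinf2*.

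The genes whose pattern over the 6 libraries was nearest to that of *Terf1* were *Nsd2*, *Yars*, *D6Wsu163e*, *Gm6493* and *Mapk10*. Likeness was the root mean square difference of the log2 values after centring each gene, and it was 0.52, 0.52, 0.60, 0.60 and 0.63. *Nsd2*, a histone H3 lysine methyltransferase gene, was at 0.891, 318 and 231 normalized counts in *Trf1+/+*, against 200.2, 5.46 and 6.89 in *Trf1flox/flox*, low in the same 3 libraries as *Terf1*. No other shelterin gene that passed the filter was near: among 9965 genes *Acd* ranked 2805, *Terf2ip* 8163, *Tinf2* 8614 and *Terf2* 9828. *Pot1a* and *Pot1b* did not pass the filter and were not ranked. These ranks are a description over 6 libraries, and all genes of a library share its depth and size factor.

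The other genes of telomere maintenance were read from 3 lists with 56 symbols, of which 46 had a row and 40 passed the filter. Among the symbols without a row, *Obfc1* and *Mre11* are other names of *Stn1* and *Mre11a*, which had one. None had an adjusted p under 0.05 in limma or by either count test. The share over all tested genes was 0% in limma and edgeR, and 0.617% of those with an adjusted p in DESeq2. In limma 1, *Parn*, which passed the filter through *Trf1flox/flox* alone, had an unadjusted p under 0.05, beside 3.13% of all tested genes. *Parn* was also the only one of the 40 with groups that did not overlap, beside 8.68% of all tested genes. Of the 40, the log2 difference was positive for 23 and negative for 17, with a median of 0.18 beside 0.20 over all tested genes. The median was -0.70 without the library labelled *Trf1+/+* replicate 1.

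**Figure D4:**
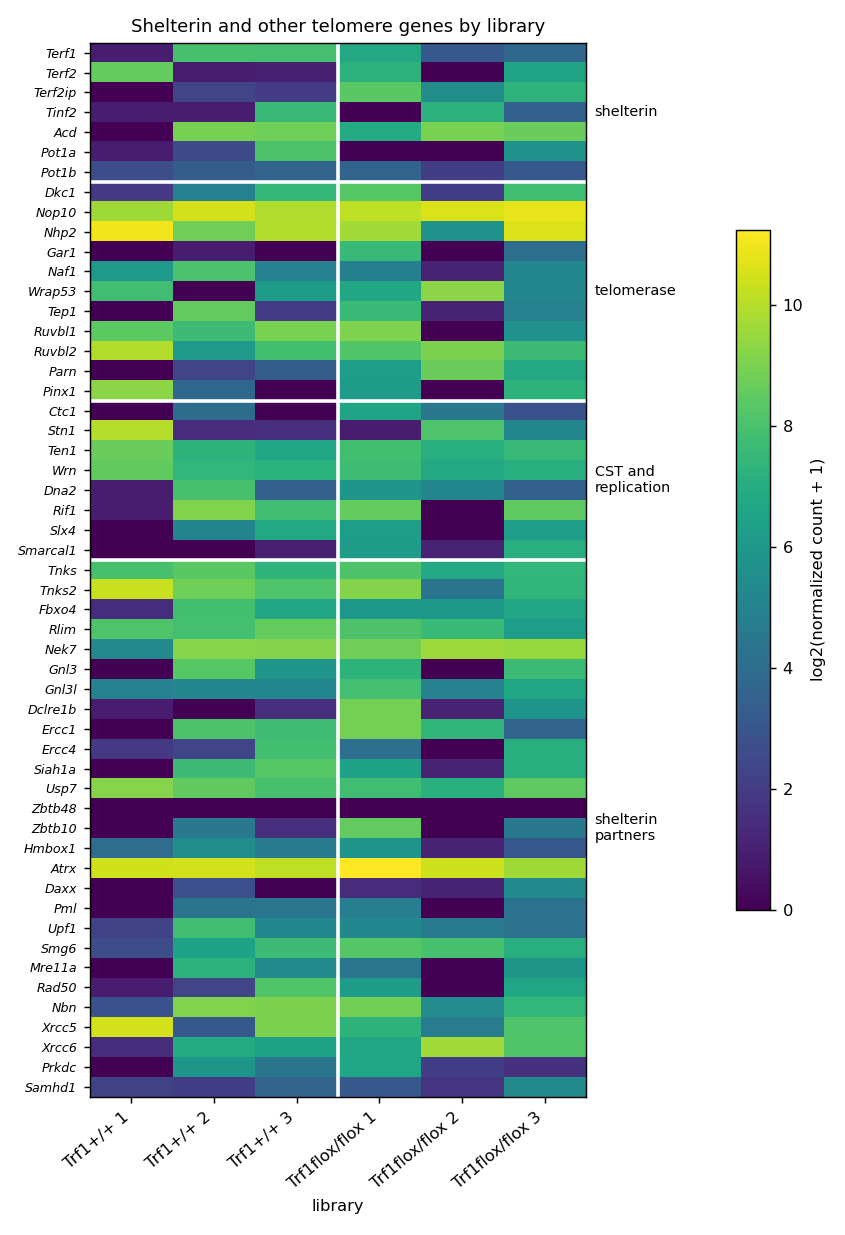
Log2(normalized count + 1) of the 7 shelterin genes and of the 46 other telomere genes with a row, by library. Rows are genes grouped by list, and white lines separate lists and genotypes. Nop10 and Atrx are high in all 6 libraries, while Terf2, Tinf2 and Pot1a are near 0 in at least 1 library of each genotype.

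Of the telomerase list, which holds subunits, assembly factors and RNA processing factors of the enzyme that adds telomeric repeats, 11 of 15 genes had a row. *Tert*, *Terc*, *Shq1* and *Pif1* were not analysed here. *Nop10*, a small protein of the H/ACA particle that binds telomerase RNA, was the most abundant, between 796 and 1847 normalized counts. *Parn*, a poly(A) ribonuclease that trims telomerase RNA, was at 0, 4.14 and 8.87 normalized counts in *Trf1+/+*, against 76.5, 404 and 109.6 in *Trf1flox/flox*. The groups did not overlap, and the log2 difference was 5.35 with a standard error of 2.26 (limma, unadjusted p = 0.0356, adjusted p = 0.970). Like *Terf2ip*, *Parn* passed the filter through *Trf1flox/flox* alone, with 0 of 3 *Trf1+/+* libraries at 10 or more. *Ruvbl1*, an ATPase gene of telomerase assembly, had 338, 207 and 512 against 547, 0 and 51.0, a log2 difference of -3.44 with a standard error of 2.16. In the list 7 genes were positive and 3 negative, with a median of 0.45.

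The second list held the CST complex, which binds the single-stranded overhang and helps to fill in the opposite strand, and factors of telomere replication. Of 13 symbols 8 had a row and 7 were tested, 4 positive and 3 negative, with a median of 0.22. The largest differences were those of the CST gene *Ctc1*, 3.32 with a standard error of 1.87, and of the nuclease gene *Dna2*, 0.73 with a standard error of 2.48, and neither passed the test. *Smarcal1*, an annealing helicase gene of stalled forks, was below the filter. It was at 0, 0 and 0.985 normalized counts in *Trf1+/+*, against 72.2, 1.09 and 132 in *Trf1flox/flox*, groups that did not overlap. The highest *Trf1+/+* value and the lowest *Trf1flox/flox* value of *Smarcal1* were 1 read each and differ only through the size factors.

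The third list held genes whose products bind or modify shelterin. Of 28 symbols 27 had a row and 23 were tested, 12 positive and 11 negative, with a median of 0.05. *Xrcc6*, which encodes the Ku70 end-binding protein, was at 1.78, 122 and 87.7 normalized counts in *Trf1+/+*, against 106, 816 and 296 in *Trf1flox/flox*, a log2 difference of 3.25 with a standard error of 1.90. *Zbtb10*, a zinc finger gene, had a difference of 2.34 with a standard error of 2.34. *Zbtb48*, whose product TZAP binds telomeric repeats, was listed at 0 in all 6 libraries. *Tnks*, the gene of the tankyrase that modifies TRF1, had 249, 335 and 157 against 274, 110.4 and 173, and its groups overlapped.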

How the data were processed

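RNA of 500 sorted kidney cells per mouse was sequenced on a NextSeq 550 after oligo(dT) priming, template switching and PCR, without keeping the strand. Per the study's methods, the authors aligned reads to GRCm38 with TopHat 2.0.10 (Bowtie 1.0.0, SAMtools 0.1.19), allowing 3 mismatches and 20 multihits, and counted genes with HTSeq 0.6.1 on GENCODE vM20. The labels' processing notes name GRCm39 instead, but 98.2% of the gene names are in GENCODE vM21 on GRCm38, used here for coordinates and exons. The study's methods give TopHat a stranded library type (fr-second strand), although they call the libraries non-stranded. HTSeq's strand setting is not given in the sources used here. The deposited values are a signal: each count divided by a size factor per library by the authors. All were whole multiples of 1 read (100% within 0.01), so reads could be recovered.

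Groups came from the genotype labels; replicates are numbered in accession order and p-values measure the spread between 3 mice. The members and gene lists were chosen with earlier results of these data known. limma 3.58.1 (R 4.3.3) with an intensity trend was fitted on log2(normalized count + 1) over the 9966 genes that reached 10 normalized counts in 3 or more libraries, and p-values were Benjamini-Hochberg adjusted over them. The fit was run on simulated counts as a check of the code, not of its power in these libraries. Alternatives were pseudocounts of 0.5 and 10, no filter, upper quartile scaling, no trend, edgeR 4.0.16 (quasi-likelihood) and DESeq2 1.42.0 on the recovered reads, and each library left out. By counting error alone, an observed 0 allows an expected number of up to 3 reads. Named were all 7 members, the 5 genes nearest to *Terf1*, and in each telomere list the genes without overlap or with an unadjusted p under 0.05 and the 2 with the largest difference; *Nop10*, *Atrx*, *Zbtb48*, *Tnks* and the genes beside members were added after their values were seen. RefSeq promoters on GRCm38.p6 were held for 6 of the 7 members. No protein sequences were used.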

Additional observations from a re-analysis of the deposited data

How the results depend on the processing

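No paired analysis was possible because the labels give no replicate numbers: those used here follow accession order and pair no mice. With DESeq2, 58 genes had an adjusted p under 0.05, none of them a shelterin gene, against 0 in limma, in edgeR and in every other setting. The log2 difference changed sign in edgeR and DESeq2 for *Terf2* (-0.43 and -0.63) and *Tinf2* (-0.42 and -0.29). Leaving out 1 library at a time, it ran from -3.38 to 0.15 for *Terf1*, in limma and in the exact permutation test alike (p from 0.2 to 1), from -0.20 to 3.66 for *Terf2*, from -1.37 to 2.68 for *Tinf2* and from -0.68 to 3.80 for *Acd*. The cause was not tested. For *Terf2ip* the log2 difference ran from 3.60 with a pseudocount of 10 to 6.41 without *Trf1flox/flox* replicate 2. Adjusted p-values over the settings were 0.0641 to 0.999. Its groups did not overlap, so leaving out 1 library could not change its sign. The difference in the *Terf1* share of shelterin reads was -11.8 points, -7.32 with *Terf2ip* left out of the sum and -33.3 with *Acd* left out. The spread within groups was computed only for the sum over all 7 genes. Members with few reads are poorly measured: by counting error alone, an observed 0 allows an expected number of up to 3 reads. In the library labelled *Trf1+/+* replicate 1, 5 of 7 members were at 3 or fewer. That library had the most reads on the listed genes, 12248797, and the cause was not tested.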

Other observations

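*Acd* and *Pard6a*, a cell polarity gene, start next to each other on chromosome 8 and are transcribed in opposite directions. *Pard6a* was at 0, 370.4 and 175 normalized counts in *Trf1+/+*, against 0.859, 247 and 101 in *Trf1flox/flox*. Both genes were at 0 reads in the library labelled *Trf1+/+* replicate 1, and both had their lowest *Trf1flox/flox* value in replicate 1. *Pard6a* was chosen for its position. The haemoglobin genes and *Alas2*, markers of red blood cells, summed to between 238 and 10472 normalized counts in *Trf1+/+* and between 121 and 52403 in *Trf1flox/flox*, and their part in the shelterin values was not tested.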
